A study of Mus musculus with 6 samples.

Results

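The genes described here are 45 genes of DNA replication and of S phase, the part of the cell cycle in which the genome is copied, chosen by symbol from their known functions. A gene was measured by every Affymetrix probe set that the platform annotation assigns to that gene alone. Of the 45 genes, 44 had such a probe set (97 probe sets in all, among 18194 genes on the array with one), and Chaf1a is not analysed here. Where a gene had several, the brightest on average over the 6 arrays stood for it, and others are given beside it for some of the genes. The RNA came from the jejunum, the middle stretch of small bowel, of male C57BL/6 mice: 3 wild type mice (numbered 1, 3 and 4) and 3 double knockout mice (1, 2 and 3) deficient for Ifrd1, also called TIS7, and for its relative Ifrd2, also called SKMc15, which act in transcriptional regulation. The mice were 7 to 10 weeks old and housed singly, and both groups ate a synthetic diet rich in saturated fat, with 42% of its energy from milk fat and 0.2% from cholesterol. The labels give 3 and up to 8 weeks on the diet for the mice as a whole and 3 weeks for the tissues that were frozen, and each mouse was measured on 1 array. The labels do not say how the alleles were made or whether litter mates were used.

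Copying of the genome starts where the origin recognition complex, with Cdc6 and Cdt1, loads the ring-shaped MCM helicase onto DNA. Cdc45 and the GINS complex join the ring to make the active helicase, the polymerase alpha and primase complex lays down primers, and polymerases epsilon and delta extend them while held by the sliding clamp PCNA, which replication factor C loads. Most of these genes are transcribed under E2F factors as cells pass from G1 into S phase. In the small intestine the dividing cells lie in the crypts, whereas the enterocytes that cover the villi no longer divide. RNA of the whole tissue was measured, so a larger share of dividing cells and more RNA per dividing cell cannot be told apart.

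The promoters of these genes are shown first because E2F-type sequences are a known feature of replication gene promoters and had no part in choosing the genes. RefSeq windows of 300 bases (250 before and 50 after each annotated start, GRCm38.p6) were searched on both strands for TTTCCCGC, TTTGGCGC and TTTCGCGC. Such a string lay in a window of 14 of the 37 genes with one (37.8%), against 2.12% of all 27025 genes. The share was 33.3% of 39 other replication and S-phase genes, 29.2% of 24 regulators of the step from G1 to S, 2.94% of 34 mitosis genes and 0 of 16 enterocyte markers. A match is a description of the letters and not evidence of binding. The stretches below carry the matches that begin before the start in 6 of the genes. Each has 80 bases, 5′ to 3′ on the strand of the gene, with the matched strings in capitals:
Mcm5 (chr8:75109322-75109401, plus strand): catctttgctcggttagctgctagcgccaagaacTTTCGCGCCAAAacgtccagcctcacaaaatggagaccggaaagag
Mcm6 (chr1:128359741-128359820, minus strand): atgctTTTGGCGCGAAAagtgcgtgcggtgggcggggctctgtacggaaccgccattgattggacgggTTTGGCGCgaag
Mcm7 (chr5:138172005-138172084, minus strand): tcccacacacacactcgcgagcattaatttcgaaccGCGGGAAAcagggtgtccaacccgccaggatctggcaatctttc
Cdc6 (chr11:98907977-98908056, plus strand): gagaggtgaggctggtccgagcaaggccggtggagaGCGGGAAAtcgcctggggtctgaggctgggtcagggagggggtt
Pola1 (chrX:93632250-93632329, minus strand): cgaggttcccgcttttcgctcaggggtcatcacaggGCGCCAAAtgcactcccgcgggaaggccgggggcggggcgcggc
Pclaf (chr9:65890246-65890325, plus strand): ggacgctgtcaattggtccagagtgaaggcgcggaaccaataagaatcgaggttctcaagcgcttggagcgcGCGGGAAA

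In Mcm5 and Mcm6 the strings TTTCGCGC and TTTGGCGC overlap head to head. The joint string of 12 bases, TTTCGCGCCAAA, is in Mcm5 on the strand of the gene and in Mcm6 as its reverse complement, TTTGGCGCGAAA. It was found in 4 of 32851 windows in all, those of Mcm5, Mcm6, Msh3 and Mycn. Mcm6 holds another TTTGGCGC nearer its start, Mcm7 and Cdc6 hold TTTCCCGC on the opposite strand, Pola1 holds TTTGGCGC on the opposite strand, and in Pclaf a reversed TTTCCCGC spans the start itself. Mcm7 also holds TTTCGCGC at bases 17 to 24 after the start, outside the stretch shown.

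Both targeted transcripts fell in all 3 double knockout mice. The log2 level of Ifrd2 was 8.38 ± 0.21 (SD, n = 3) in the wild type and 2.66 ± 0.08 in the double knockout group. That is at least 20.8-fold lower with values under a level of 4 raised to it. The Ifrd2 probe set passed the filter described below through the wild type arrays alone, so no test is read from it. Ifrd1 was at 9.92 ± 0.08 in the wild type and 5.30 ± 0.83 in the double knockout group (limma adjusted p = 0.00894). Array medians over all probe sets lay between 2.87 and 2.90. The difference between the 3′ and 5′ control probe sets of Gapdh and Actb, a measure of RNA integrity, was 0.35, 0.49 and 0.36 log2 units in wild type mice 1, 3 and 4 and 0.60, 0.41 and 0.61 in double knockout mice 1, 2 and 3. Markers of the jejunal epithelium were present: all 16 enterocyte markers passed the filter, and their summed linear level ran from 162747 to 167557 in wild type and from 152231 to 156803 in double knockout mice.

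A probe set was tested where its value was above a log2 level of 4 on at least 3 of the 6 arrays, which kept 18013 of 45101. Of the 44 genes, 38 were kept, each above that level on all 6 arrays, so none owed its place to the group in which it was higher. The other 6 genes (Orc1, Cdc45, Tyms, Chaf1b, Ccne1 and E2f1) were too dim.

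In double knockout jejunum 6 of the 38 kept replication genes were higher and 0 lower by limma with an adjusted p not above 0.05, where 2.54% of all tested probe sets were higher and 1.93% lower (4.47% in either direction). They were Pclaf, a PCNA-binding protein, Pole, the catalytic subunit of polymerase epsilon, Pold2, a subunit of polymerase delta, Mcm5, a subunit of the helicase ring, Gins2, a subunit of GINS, and Rrm1, the large subunit of ribonucleotide reductase. Their log2 fold changes lay between 0.43 and 0.79. The other kept probe set of Pclaf went the opposite way, as set out below, so the direction for Pclaf depends on the probe set. The fold change was positive for 32 of the 38 genes (53.6% of all tested probe sets), with a median of 0.38 against 0.03 for all tested probe sets. For 25 genes all 3 double knockout values lay above all 3 wild type values, and for 2, Ccne2 and Pola2, all lay below (19.5% and 14.8% of all tested probe sets). At an unadjusted p under 0.05, 24 genes were higher and 2 lower (15.3% and 11.8% of all tested probe sets). A further 13 genes had adjusted p-values between 0.05 and 0.10, 11 of them with positive fold changes.

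**Figure D1:**
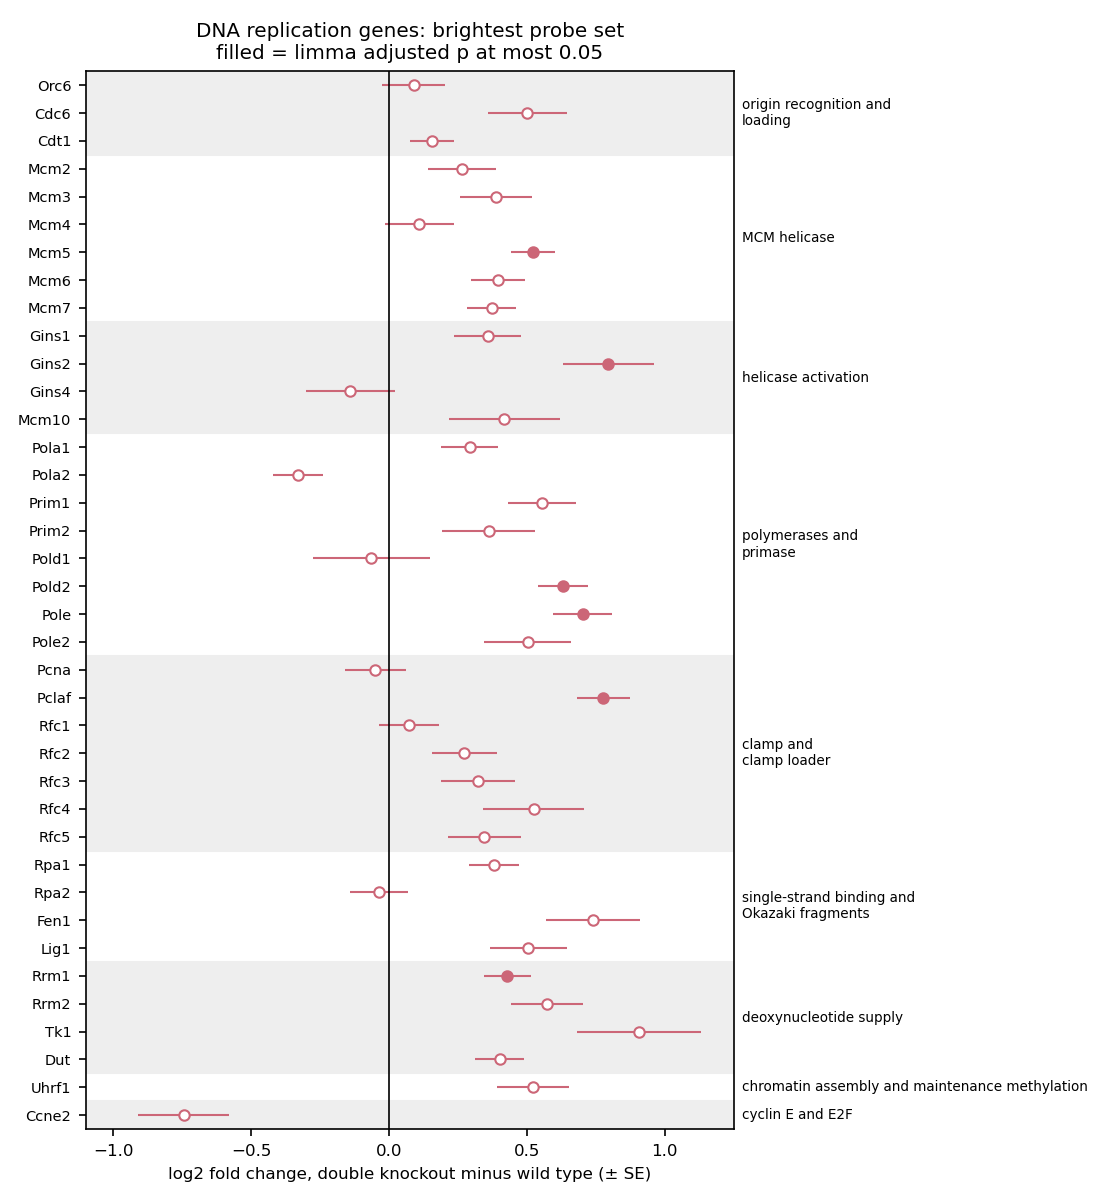
Log2 fold change (double knockout minus wild type) with limma's standard error for the 38 kept replication genes, grouped by role, n = 3 mice a group; filled points passed limma at an adjusted p of 0.05. The points of 32 genes lie to the right of 0, the filled ones between 0.43 and 0.79, and Ccne2 lies farthest left at -0.74.

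The number of called genes depended on every array and on how the variance was estimated, while the median moved less. Calls over all probe sets moved as well. Their 458 higher became 11 to 196 on leaving out a mouse, and the closing section gives the other settings. Leaving out any 1 mouse left 0 to 2 genes higher and a median between 0.36 and 0.41: 0 when a wild type mouse or double knockout mouse 3 was left out, 1 when double knockout mouse 1 was, and 2 when its group's mouse 2 was. Adding the 3′ to 5′ difference as a covariate, 0 genes passed and the median was 0.32; with a variance prior that follows the level of expression 15 were higher and 1 lower.

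Origin recognition and licensing had the smallest median log2 fold change, 0.16 over 3 genes, among roles with several kept genes. Cdc6, the ATPase that brings the helicase to the origin, was at 4.43, 4.27 and 4.55 in wild type and at 5.18, 4.85 and 4.72 in double knockout mice, groups that did not overlap. Its log2 fold change was 0.50 ± 0.14 (SE) with a limma adjusted p of 0.0897. Cdt1, its partner in loading, differed by 0.16 ± 0.08 and Orc6, a subunit of the origin recognition complex, by 0.09 ± 0.11. Orc1, the largest subunit of that complex, lay between 2.58 and 2.81 on all 6 arrays, too low to compare.

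All 6 subunits of the MCM ring had positive fold changes, from 0.11 for Mcm4 to 0.52 for Mcm5. Mcm5 was at 8.81, 8.85 and 8.75 in wild type mice 1, 3 and 4 and at 9.37, 9.26 and 9.35 in double knockout mice 1, 2 and 3. The groups were separated by more than the range within either, and Mcm5 rose by 0.52 ± 0.08 (limma adjusted p = 0.0277). Its dimmer probe set rose as well, by 0.99 ± 0.20 (limma adjusted p = 0.0499). Mcm3 did not pass on its brightest probe set (0.39 ± 0.13, limma adjusted p = 0.125) but rose by 0.78 ± 0.15 on a dimmer one (limma adjusted p = 0.0450), at 5.31, 5.73 and 5.43 against 6.21, 6.08 and 6.49. Mcm6, Mcm7 and Mcm2 differed by 0.40 ± 0.10, 0.37 ± 0.09 and 0.26 ± 0.12. On the brightest probe sets the values of Mcm6 and Mcm7 did not overlap between groups, whereas those of Mcm2 did. The dimmer probe sets of Mcm7 had 0.33, 0.15 and 0.15, and the groups overlapped on those with the smaller values. For Mcm4 and Mcm6 the 2 kept probe sets of the gene differed in size (0.11 and 0.40 in both genes), so the order of the subunits depends on the probe set.

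Of the genes that turn the loaded ring into the active helicase, Gins2 rose. It was at 4.04, 4.39 and 4.03 in wild type and at 4.67, 4.99 and 5.18 in double knockout mice, a log2 fold change of 0.79 ± 0.16 (limma adjusted p = 0.0499). These levels lie just above the filter, and the call was at the edge of the threshold: without the filter its limma adjusted p was 0.0700, and with each array centred on its median 0.0515. Gins1 and Mcm10, a scaffold for helicase activation, had fold changes of 0.36 ± 0.12 and 0.42 ± 0.20, and Gins4, another GINS subunit, one of -0.14 ± 0.16. The GINS subunits thus had fold changes of both signs. Cdc45 stayed between 3.17 and 3.61 on all arrays.

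The polymerases gave 2 of the 6 calls. Pole was at 4.89, 5.08 and 4.81 in wild type and at 5.51, 5.67 and 5.71 in double knockout mice, and rose by 0.70 ± 0.11 (limma adjusted p = 0.0273). Pold2 was at 8.21, 8.26 and 8.22 against 8.73, 8.89 and 8.96, and rose by 0.63 ± 0.09 (limma adjusted p = 0.0255). In both genes the gap between the groups exceeded the range within either. Their partner subunits did not pass: Pole2 had 0.50 ± 0.16 and Pold1, the catalytic subunit of polymerase delta, -0.06 ± 0.21 on its brightest probe set and 0.21 ± 0.16 on the dimmer one.

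The subunits of the polymerase alpha and primase complex, which act as 1 enzyme, had fold changes of both signs. Prim1, the catalytic primase subunit, was at 7.54, 7.29 and 7.46 in wild type and at 7.78, 8.08 and 8.10 in double knockout mice, a difference of 0.56 ± 0.12 that just missed the threshold (limma adjusted p = 0.0565). Prim2 and Pola1, the catalytic polymerase subunit, had 0.36 ± 0.17 and 0.29 ± 0.10. Pola2, the accessory subunit, was at 7.44, 7.21 and 7.33 against 6.96, 6.99 and 7.03, so that every double knockout value lay below every wild type value. Its fold change of -0.33 ± 0.09 did not pass (limma adjusted p = 0.0859).

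Pcna, the sliding clamp and a common marker of proliferating cells, was not among the genes that were higher. It was at 11.05, 10.98 and 10.94 in wild type and at 10.73, 11.07 and 11.02 in double knockout mice, a difference of -0.05 ± 0.11 (limma adjusted p = 0.8003), measured by 1 probe set. Double knockout mouse 1 held the lowest value and mouse 2 the highest. Of the clamp loader subunits, Rfc4, Rfc5, Rfc3 and Rfc2 had 0.52 ± 0.18, 0.35 ± 0.13, 0.32 ± 0.13 and 0.27 ± 0.12, and Rfc1, the large subunit, 0.07 ± 0.11. None passed on its brightest probe set. Rfc4 rose on its other probe set, at 6.94, 6.83 and 6.96 in wild type and 7.48, 7.54 and 7.44 in double knockout mice (0.58 ± 0.08, limma adjusted p = 0.0257). Wild type mouse 3, at 6.51 against 7.16 and 7.17, widened the spread of the brighter Rfc4 probe set. The dimmer probe sets of Rfc1 and Rfc3 had negative fold changes that did not pass (-0.07 and -0.47 for Rfc1 and -0.04 for Rfc3).

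The 2 kept probe sets of Pclaf moved in opposite directions. On the brightest it was at 8.66, 8.83 and 8.89 in wild type and at 9.59, 9.49 and 9.63 in double knockout mice, and rose by 0.78 ± 0.10 (limma adjusted p = 0.0186). On the next brightest it was at 6.57, 6.65 and 6.62 in wild type and at 2.35, 2.90 and 2.41 in double knockout mice. All 3 double knockout values lay under the level of 4, a fall of at least 6.13-fold with values under 4 raised to it. This probe set passed the filter through the wild type arrays alone. The size of its fall is therefore known only as that bound, and no test is read from it. The remaining Pclaf probe set was between 1.93 and 2.34 on all arrays. Pclaf is the only kept replication gene on the chromosome that carries Ifrd2, where 7.92% of the kept probe sets of named genes were called against 4.38% on the other chromosomes. Pole2 and Rrm2 are the 2 kept replication genes on the chromosome that carries Ifrd1. Whether sequence differences carried along with either targeted allele affect the probes of these genes was not tested.

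**Figure D2:**
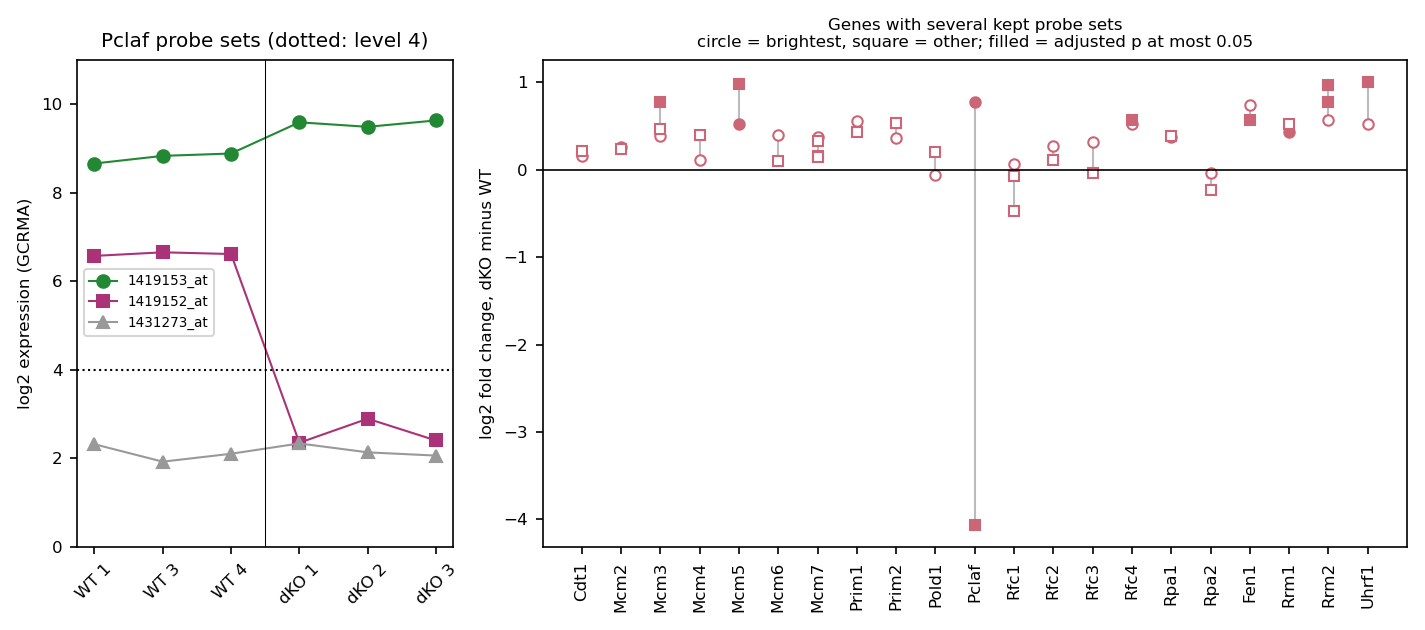
Left, log2 expression of the 3 Pclaf probe sets in each mouse (WT, wild type; dKO, double knockout), with the filter level of 4 dotted; 1 rises in the double knockout mice, 1 drops from at least 6.57 to under 4 and 1 is dim in all. Right, log2 fold change of each kept probe set for the 21 genes with more than 1; apart from Pclaf, the probe sets of a gene span at most 0.54, and the lower Pclaf and upper Uhrf1 values rest on levels under 4 in 1 group.

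For 21 genes more than 1 probe set was kept, and in 4 of them (Pold1, Pclaf, Rfc1 and Rfc3) the fold changes differed in sign. Of the 64 kept probe sets of the replication genes, 2 passed the filter through 1 group alone, the lower one of Pclaf and the dimmer one of Uhrf1. Of the other 62, 12 were higher and 0 lower by the same limma test, in 10 genes (2.54% and 1.93% of all tested probe sets). The 4 genes added to those called on the brightest probe set were Mcm3, Rfc4, Fen1 and Rrm2. For 8 genes the brightest probe set was of a type (_x_at or _s_at) that can also bind other transcripts. Among the called genes, Mcm5 and Gins2 rested on a probe set of that type. Without that type, a choice made after seeing the data, 8 of 37 genes were higher and 0 lower. Gins2 was not among these 37, as its other probe set was too dim to test.

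On the lagging strand, where DNA is made in Okazaki fragments, Fen1, the flap endonuclease that trims them, was at 7.08, 7.48 and 7.36 in wild type and at 8.08, 7.75 and 8.31 in double knockout mice. The groups did not overlap, but the spread was wide (0.74 ± 0.17, limma adjusted p = 0.0609). Its other probe set was tighter and rose by 0.57 ± 0.09 (limma adjusted p = 0.0282). Lig1, the ligase that joins the fragments, had 0.51 ± 0.14 (limma adjusted p = 0.0852). Of the subunits of the single-strand binding protein RPA, Rpa1 had 0.38 ± 0.09 on its brightest probe set and 0.38 ± 0.08 on the other, neither past the threshold, and Rpa2 had -0.03 ± 0.11 and -0.24 ± 0.23.

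The enzymes that supply deoxynucleotides had positive fold changes in all 4 kept genes. Rrm1 was at 8.16, 8.13 and 8.02 in wild type and at 8.57, 8.46 and 8.56 in double knockout mice and rose by 0.43 ± 0.09 (limma adjusted p = 0.0454). The call was at the edge of the threshold: its limma adjusted p was 0.0752 without the filter, 0.0503 after quantile normalization and 0.0502 with each array centred on its median. The other kept probe set of Rrm1 differed by 0.53 ± 0.21 and did not pass (limma adjusted p = 0.175), and its groups overlapped. Rrm2, the small subunit, whose supply limits the reductase in S phase, was at 7.94, 8.24 and 8.28 against 8.84, 8.56 and 8.77 on its brightest probe set (0.57 ± 0.13, limma adjusted p = 0.0575). It rose on both dimmer probe sets, by 0.78 ± 0.13 and 0.97 ± 0.11 (limma adjusted p = 0.0306 and 0.0156). The probe set with the larger rise was at 4.21, 3.89 and 4.06 in wild type and at 5.10, 5.06 and 4.92 in double knockout mice. Its wild type values thus lay about the filter level, where levels are uncertain.

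Tk1, the thymidine kinase of dividing cells, had the largest positive fold change of the brightest probe sets, 0.91 ± 0.22, and did not pass (limma adjusted p = 0.0689). It was at 7.04, 7.43 and 7.27 in wild type and at 7.75, 8.09 and 8.61 in double knockout mice, where the SD was 0.43. Dut, which removes dUTP, was at 7.93, 7.98 and 7.77 against 8.28, 8.28 and 8.31 (0.40 ± 0.09, limma adjusted p = 0.0555). For both genes the groups did not overlap. Tyms, thymidylate synthase, was between 2.01 and 2.47 on its brightest probe set.

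Uhrf1, which guides DNA methylation onto newly copied DNA, was at 8.00, 8.38 and 8.14 in wild type and at 8.86, 8.56 and 8.67 in double knockout mice (0.52 ± 0.13, limma adjusted p = 0.0706). Its dimmer probe set was at 3.49, 3.57 and 3.17 in wild type and at 4.16, 4.71 and 4.37 in double knockout mice, and so passed the filter only through the group in which it was higher; no test is read from it. Chaf1b, a subunit of the histone chaperone that assembles new nucleosomes, was too dim to test; its values were 3.08 to 3.33 in wild type and 3.62 to 3.78 in double knockout mice.

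Cyclin E, which starts S phase with Cdk2, is encoded by Ccne1 and Ccne2. Ccne2 was at 7.23, 7.33 and 7.69 in wild type and at 6.78, 6.82 and 6.41 in double knockout mice. Every double knockout value lay below every wild type value, opposite to most of the genes above, and the fold change of -0.74 ± 0.16 missed the threshold (limma adjusted p = 0.0555). Over the alternatives tried its adjusted p ran from 0.0313 to 0.291, and its sign stayed negative in each. Ccne1 was at 3.61 to 3.77 in wild type and at 4.00 to 4.13 in double knockout mice, below the filter and not tested; its values, like those of most genes above, were higher in all 3 double knockout mice. E2f1 was also dim, between 2.96 and 3.68.

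**Figure D3:**
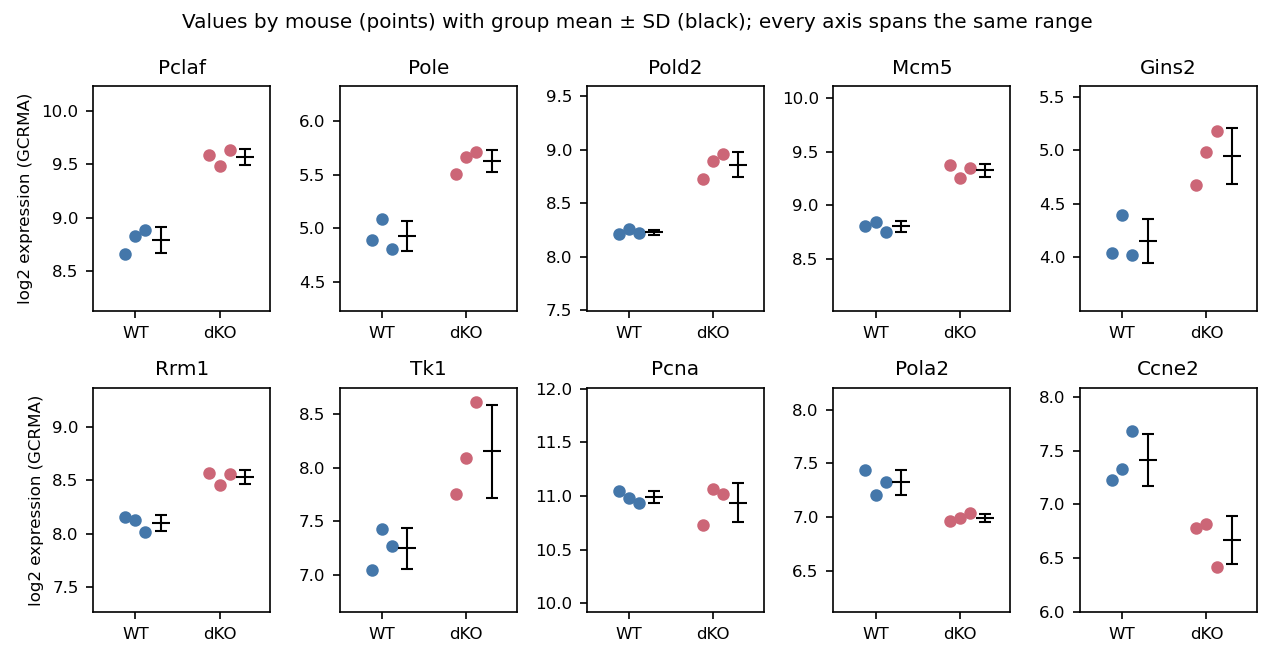
Log2 expression in each mouse for the 6 called genes (Pclaf, Pole, Pold2, Mcm5, Gins2 and Rrm1) and for Tk1, Pcna, Pola2 and Ccne2, with the group mean ± SD (n = 3); WT is wild type, dKO double knockout. The groups overlap for Pcna alone, and Pola2 and Ccne2 are lower in all 3 double knockout mice.

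The median shift was 0.37 or more in each of the 3 double knockout mice. Set against the wild type mean of each gene, the median over the 38 genes was 0.41, 0.37 and 0.42 in double knockout mice 1, 2 and 3 and -0.03, 0.04 and -0.01 in wild type mice 1, 3 and 4. Double knockout mice 1, 2 and 3 lay above the wild type mean in 32, 33 and 34 of the 38 genes, and wild type mice 1, 3 and 4 in 16, 25 and 18. Double knockout mouse 3 held the highest value of its group in 16 genes, mouse 1 in 14 and mouse 2 in 8. The 3′ to 5′ differences of double knockout mice 1 and 3 (0.60 and 0.61) lay above those of all wild type mice. That of double knockout mouse 2 (0.41) lay within the wild type range. RNA integrity and genotype thus partly ran together, and their parts in the shift were not told apart. The SD within a group had a median over genes of 0.14 in wild type and 0.15 in double knockout mice.

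Fold changes were set beside the presence of the E2F-type string. The median was 0.40 for the 13 kept genes with a match (12 positive, 2 called) and 0.40 for the 17 without one (14 positive, 2 called). The remaining 8 kept genes, among them Pole and Gins2, had no promoter window to search. Of the called genes, Mcm5 and Pclaf held a match and Pold2 and Rrm1 did not.

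Other genes of replication and S phase were also mostly higher in fitted value. Of 42 kept genes of that list, 5 were higher (11.9%) and 0 lower, where 2.54% of all tested probe sets were higher and 1.93% lower. Fold changes were positive for 36 (53.6% of all tested probe sets), and the median was 0.29. Clspn, a checkpoint mediator at the fork, rose by 0.63 ± 0.09, Tipin, of the fork protection complex, by 0.57 ± 0.10, and Top2a, the topoisomerase that untangles copied DNA, by 0.55 ± 0.10 (limma adjusted p 0.0223, 0.0346 and 0.0344). Ccna2, the S-phase cyclin, rose by 0.62 ± 0.11, and the histone chaperone Nasp by 0.54 ± 0.11 (limma adjusted p 0.0383 and 0.0494).

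Regulators of the step from G1 to S were called about as often as all tested probe sets. Of 29 kept genes, 1 was higher (3.45%) and 1 lower, where 2.54% of all tested probe sets were higher and 1.93% lower. Fold changes were positive for 19 (53.6% of all tested probe sets), with a median of 0.12. At an unadjusted p under 0.05, 12 were higher and 4 lower (15.3% and 11.8% of all tested probe sets). All double knockout values lay above all wild type values for 13 and below them for 5 (19.5% and 14.8% of all tested probe sets). Cks1b, which helps to degrade the inhibitor p27, rose by 0.60 ± 0.09 (limma adjusted p = 0.0282). Cdkn1c, the inhibitor p57, fell by 0.73 on the log2 scale (SE 0.14, limma adjusted p = 0.0443). It was at 5.04, 5.27 and 4.91 in wild type and at 4.11, 4.50 and 4.42 in double knockout mice.

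Mitosis and spindle genes, the neighbouring part of the cell cycle, had the higher share of calls. Of 37 kept genes 12 were higher and 0 lower (32.4% higher, against 15.8% of the replication genes and 2.54% of all tested probe sets). All 37 had positive fold changes, and the median was 0.51. Whether these shares differ was not tested. The spindle checkpoint kinase Ttk rose by 1.22 ± 0.12 and its partner Mad2l1 by 0.64 ± 0.09 (limma adjusted p 0.0111 and 0.0238), and Hmmr and Plk1, both of the spindle, by 0.68 ± 0.08 and 1.18 ± 0.17 (limma adjusted p 0.0189 and 0.0256).

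**Figure D4:**
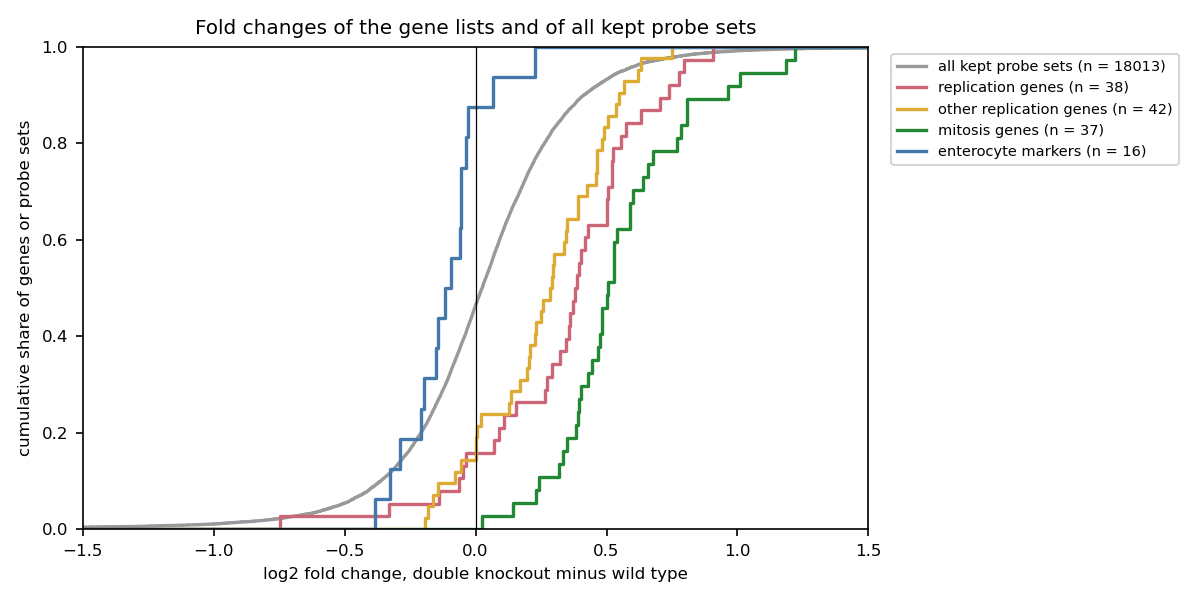
Cumulative share of genes (y axis, 0 to 1) by log2 fold change, double knockout minus wild type (x axis), for the 38 replication genes, 42 other replication genes, 37 mitosis genes and 16 enterocyte markers, and for all 18013 kept probe sets. The replication genes cross the middle of the scale at 0.38, the mitosis genes at 0.51 and all probe sets at 0.03.

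Markers of the cells that the tissue holds were compared in the same way, and their part in the shift of the replication genes was not tested. At an unadjusted p under 0.05, 15.3% of all tested probe sets were higher and 11.8% lower, and 53.6% had positive fold changes. These shares are to be set beside the counts of every marker list. Of 10 kept crypt stem cell markers 0 passed (at an unadjusted p under 0.05, 3 were higher and 1 lower), and the median was 0.17. The summed linear level of the 13 measured, 63.9% to 70.9% of it Olfm4, ran from 5051 to 6573 in wild type and from 6058 to 6508 in double knockout mice. Ascl2, a stem cell transcription factor, had 0.81 ± 0.19 and Rnf43, an inhibitor of Wnt receptors, -0.57 ± 0.16 (limma adjusted p 0.0646 and 0.0925). Of the 16 enterocyte markers 14 had negative fold changes, the median was -0.10, and 0 passed (0 higher and 3 lower at an unadjusted p under 0.05). The smallest p-values among them were those of Apob, at -0.33 ± 0.08, and Lct, at -0.29 ± 0.08 (limma adjusted p 0.0699 and 0.0847). For fibroblast markers (8 of 8 kept, 8 positive, 0 passed, 2 higher at an unadjusted p under 0.05) the median log2 fold change was 0.45, above the 0.38 of the replication genes, and the summed level was 3264 to 5197 in wild type and 5042 to 6657 in double knockout mice. For macrophage and dendritic cell markers (7 of 10 kept) the median was 0.34 and the summed level, 61.5% to 74.5% of it Lyz2, was 2577 to 4120 and 2996 to 4402. For T cell markers (5 of 8 kept) the median was 0.18 and the summed level, 67.3% to 77.6% of it Gzma, was 578 to 768 and 502 to 973, with 0 passing in either list (1 macrophage and 0 T cell markers higher at an unadjusted p under 0.05).

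Of the remaining lists, 0 genes passed among 6 Paneth, 9 goblet, 8 enteroendocrine, 7 smooth muscle and 6 endothelial cell markers, with medians of -0.08, -0.02, 0.14, 0.04 and 0.22 (at an unadjusted p under 0.05, 0 were higher and 1, an enteroendocrine marker, lower). Of 3 kept tuft cell markers Rgs13 fell by 1.00 on the log2 scale (SE 0.17, limma adjusted p = 0.0321). All 3 had negative fold changes, with a median of -0.55, and 2 were lower at an unadjusted p under 0.05. Red blood cell markers were too dim to test.

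B cells, which divide in lymphoid follicles, differed between mice within both groups. Ms4a1, the B cell surface protein CD20, was at 7.44, 1.57 and 7.56 in wild type mice 1, 3 and 4 and at 8.27, 2.58 and 1.90 in double knockout mice 1, 2 and 3. Cd79b, of the B cell receptor, was at 7.30, 3.25 and 6.85 and at 7.45, 4.39 and 4.11. Double knockout mice 1, 2 and 3 had replication medians of 0.41, 0.37 and 0.42, and whether B cells had a part in these was not tested. Of 5 kept B and plasma cell markers 0 passed (1 was higher at an unadjusted p under 0.05), and the median was -0.37. The summed level of the 8 measured was 7080 to 8393 in wild type and 8236 to 8636 in double knockout mice, but 88.9% to 95.7% of it was Jchain, a gene of plasma cells, so that it does not show the differences in B cell markers. Cd79a, Pax5 and Tnfrsf17 were too dim to test.

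**Figure D5:**
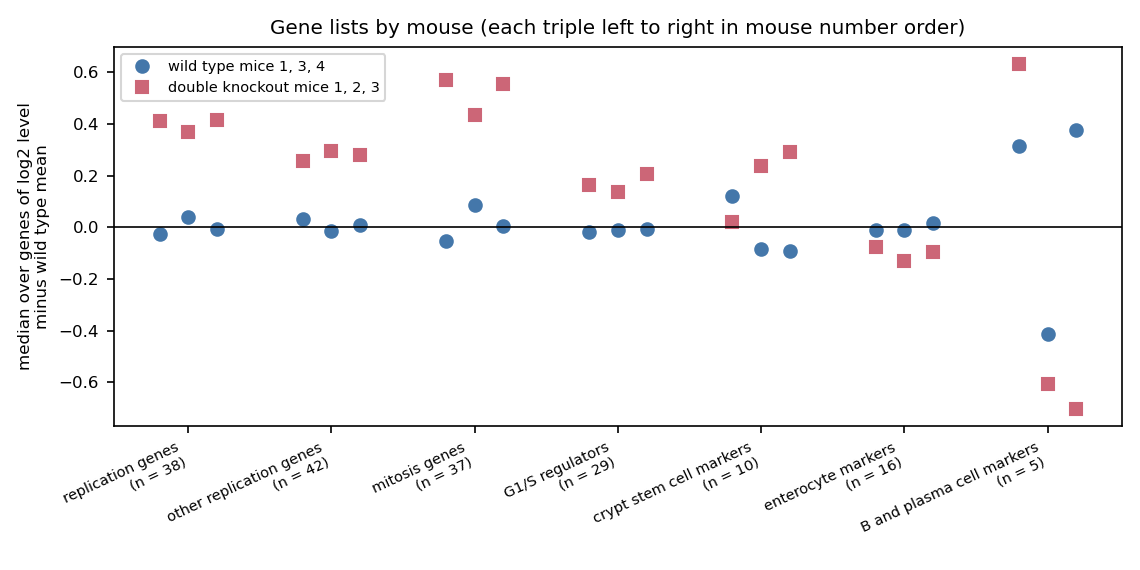
Median over the kept genes of each list of the log2 level minus the wild type mean (y axis) for every mouse; circles are wild type and squares double knockout mice. The replication genes of the double knockout mice lie between 0.37 and 0.42 and those of the wild type mice between -0.03 and 0.04, whereas B and plasma cell markers are spread over both groups.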

How the data were processed

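Total RNA (500 ng a mouse) was labelled with biotin and hybridised to Affymetrix mouse expression arrays, 1 a mouse, per the labels' protocols. The authors deposited log2 expression values that the submitters' processing notes name GCRMA (version 2.18.0) for; its settings are not stated there, and the log2 scale was read from the values. GCRMA subtracts a background modelled from probe sequence, so low levels are uncertain, and the number of arrays limits the precision. In every pair of arrays of a group, at least 62.5% of kept probe sets had values over 0.1 apart.

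Gene names came from the platform annotation, with symbols updated to RefSeq by gene identifier; 34958 had 1 symbol, 932 several and 9211 none. Leaving out 64 control probe sets, each one above 4 on at least 3 arrays was fitted with limma 3.58.1 in R 4.3.3 (lmFit, eBayes, two-sided, no covariate) and adjusted by Benjamini-Hochberg over all 18013. The error beside a fold change is the standard error of that fit, which was tested on simulated data. There, 13 of 67 planted log2 changes of 0.5 were called (19.4%) and 44 of 67 of size 1 (65.7%). A gene that did not pass may therefore still differ. Fewer changes were planted than were called in the data, so these shares need not hold for the data.

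The genes, the lists (235 symbols, 224 with a probe set) and the tests were chosen with earlier results of these data known. Named are the targeted genes, all called genes, genes whose probe sets differ in sign, the extremes of each role, the uncalled genes with the smallest p, and of other lists up to 4 called genes or 2 with the smallest p; Nasp, Msh3, Mycn, further replication genes and the B cell markers were named after their values or matches were seen. Alternatives covered the filter, scaling, a floor, the variance prior, the 3′ to 5′ covariate, weights per array, a block for the mouse number, the choice of probe set and leaving out each mouse. Figures were drawn with matplotlib 3.10.9.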

Additional observations from a re-analysis of the deposited data

How the results depend on the processing

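Some settings changed the counts of called genes, and each count here has the main value of the report first. Replication genes higher (6) became 13 with a stricter filter (above 6), 15 with the trend and robust prior, 14 with the mean of a gene's probe sets, 0 with the mouse number as a replicate block and 0 with the 3′ to 5′ covariate; lower (0) became 1 with the stricter filter, the trend and robust prior or array weights and 2 with the gene mean. The median (0.38) was 0.32 with the covariate. Other replication genes higher (5) became 1 without a filter, 8 with the trend and robust prior, and 0 with the block or the covariate. Mitosis genes higher (12) became 19 with the trend and robust prior, 23 with the gene mean, and 0 with the block or the covariate. Regulators of G1 to S higher (1) became 5 with the stricter filter, 5 with the trend and robust prior, 3 with the gene mean, 2 without probe sets of the _x_at and _s_at types (added after seeing the data), and 0 with the block or the covariate. Of all probe sets, 458 higher and 347 lower became 265 and 207 without a filter and 968 and 762 with the trend and robust prior, 2 and 11 with the block and 5 and 12 with the covariate, and 710 were higher with the stricter filter.

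Leaving out each mouse in turn gave 0 to 2 replication genes higher and 0 lower, a median of 0.36 to 0.41, 0 to 3 other replication genes, 0 to 8 mitosis genes and 0 to 1 regulators higher, and 11 to 196 probe sets higher and 21 to 239 lower. The block rests on mouse numbers 1 and 3, which the groups share; deviations from the group means correlated at 0.02 and 0.30 for these pairs. With only these pairs, and no label that gives the number a meaning, whether it pairs the mice is not known.

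Fold changes that turned sign were -1.64 for Pclaf and -0.15 for Rfc1 with the gene mean; 0.24 with the block, 0.18 without double knockout mouse 2, 0.073 with the gene mean and 0.21 without the _x_at and _s_at types for Pold1; 0.12 for Gins4 and 0.048 for Pcna with the covariate; -0.0024 for Orc6, -0.00076 for Rfc1 and 0.050 for Rpa2 without wild type mouse 3; and 0.053 for Pcna without double knockout mouse 1. Leaving out each mouse, these genes ranged from -0.0024 to 0.15 (Orc6), -0.00076 to 0.16 (Rfc1), -0.11 to 0.050 (Rpa2), -0.11 to 0.053 (Pcna) and -0.22 to 0.18 (Pold1). For Pclaf the gene mean averages opposite probe sets, of which the lower is under 4 in every double knockout mouse, so this value, and its count among the 2 lower genes, measures no exact difference; otherwise the cause was not tested.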
